A study of Mus musculus with 5 samples.

Results

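Mzb1-high B cells of the mouse heart were described here at single-cell resolution, in non-cardiomyocyte heart cells of C57BL/6 mice aged 18 months and 2 months. Each age gave 1 droplet library from hearts digested with collagenase II and dispase II, stained with hashtag antibodies, sorted and mixed at ratios that are not given in the sources used here. The number of animals behind a library is likewise not given. Cells with 200 genes or more and no more than 15% of their UMIs (unique molecular identifiers, which count captured transcripts) from mitochondrial genes were kept, 19423 in all. Members were chosen by measured values. A member had at least 2 UMIs of Cd79a, at least 1 UMI of Ms4a1 and at least 3 UMIs of Mzb1. It had no UMI of Fcer2a, nor of C1qa, Cd3e, Cdh5 or Csf1r, genes of macrophages, T cells, endothelial cells and myeloid cells. This rule found 370 members, 88 at 18 months and 282 at 2 months. They were set against the 972 Fcer2a-positive B cells of the same gate, which had at least 1 Fcer2a UMI and any number of Mzb1 UMIs.

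B-1 cells are innate-like B lymphocytes that populate the peritoneal and pleural cavities and renew themselves there, and they are a main source of natural IgM. Mzb1 encodes an endoplasmic reticulum co-chaperone of antibody assembly and secretion that is abundant in marginal zone B cells, B-1 cells and plasma cells. Fcer2a encodes CD23, the low-affinity IgE receptor, which follicular B cells carry and which B-1, marginal zone and plasma cells lack or carry at low levels. Zbtb32, a transcriptional repressor, and Bhlhe41, a transcription factor needed by B-1a cells, are known from B-1 cells, whereas IgD and complement receptor 2 are carried by follicular cells.

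The libraries held 8844 barcodes at 18 months and 12235 at 2 months, of which 8035 and 11388 were kept in that order. The 2-month cells were deeper: members had a median of 6664.5 UMIs at 18 months and 13462 at 2 months, and Fcer2a-positive cells a median of 4337 UMIs at 18 months and 7946.5 at 2 months. At both ages members were therefore deeper than the cells they were set against, and a floor of 3 Mzb1 UMIs is passed more easily by a deep cell. The libraries shared 42 barcodes, none of which was a member in both. Scrublet, a doublet caller, marked 1 of 88 members at 18 months and 18 of 282 at 2 months, in libraries where it marked 2.73% and 4.20% of kept cells at 18 and 2 months. With 1 library per age no comparison between ages has a replicate, so no p-value is given. The 95% intervals cover counting error only.

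The genes of the rule are described without a comparison, since they chose the cells. Members had a median of 5 Mzb1 UMIs at 18 months and 9 at 2 months, with maxima of 90 and 470 UMIs in that order of age. Their median Cd79a count, for a subunit of the B cell receptor, was 18.5 UMIs at 18 months and 30 at 2 months. Their median Ms4a1 count, for CD20, was 6 UMIs at 18 months and 19 at 2 months. Just inside the threshold, 25 members at 18 months and 16 at 2 months had exactly 3 Mzb1 UMIs. Their summed Ighd level was 682 CPM (counts scaled to a fixed total for all genes of the set) at 18 months and 227 CPM at 2 months, and their Zbtb32 level 110 CPM at 18 months and 38.8 CPM at 2 months. Just outside it, with 2 Mzb1 UMIs and no Fcer2a, lay 46 cells at 18 months and 25 at 2 months. These had 648 CPM of Ighd and 17.8 CPM of Zbtb32 at 18 months, and 257 CPM of Ighd and 110 CPM of Zbtb32 at 2 months. Members with at least 11 Mzb1 UMIs, 13 cells at 18 months and 117 at 2 months, had 38.4 CPM of Ighd at 18 months and 29.2 CPM at 2 months.

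Genes known from B-1 cells were higher in members than in Fcer2a-positive B cells. A gene counted as higher or lower when its summed level differed by at least 1.5-fold with an interval that left out 0 on the log2 scale. Of the 18 genes of the B-1 list with at least 20 UMIs over the 2 sets of cells in each library, 13 were higher in both libraries and none was lower in both. Over all 8533 genes measured so, 1.88% were higher in both libraries and 2.78% were lower in both. The median log2 ratio of the list was 1.81 at 18 months and 0.80 at 2 months, where the median over all genes was -0.12 at 18 months and -0.14 at 2 months. Zbtb32 stood at 101.1 CPM in members and 9.82 CPM in Fcer2a-positive cells at 18 months, a log2 ratio of 3.36 (2.67 to 4.10). A single Fcer2a-positive cell held 15 of that set's 24 Zbtb32 UMIs, and without it the set stood at 3.71 CPM. At 2 months it stood at 75.8 CPM in members and 25 CPM in Fcer2a-positive cells, a log2 ratio of 1.60 (1.29 to 1.92). Both libraries thus had Zbtb32 higher in members. Bhlhe41 was 75.8 CPM in members and 6.95 CPM in Fcer2a-positive cells at 18 months, and 92.2 CPM in members and 28.7 CPM in Fcer2a-positive cells at 2 months. Plac8, a small cysteine-rich protein also found in myeloid cells, was 956 CPM in members and 308 CPM in Fcer2a-positive cells at 18 months. At 2 months Plac8 was 975 CPM in members and 453 CPM in Fcer2a-positive cells. The remaining 10 genes higher in both libraries were Spn, Itgam, Ctla4, Fcrl5, Cd80, Il5ra, Ccnd2, S100a6, Ahr and Tppp3. Some of these rested on few cells at 18 months. There the 5 richest members held 84.7% of the Tppp3 UMIs of members, 82.8% of Ctla4 and 55.6% of Il5ra. They held 50% for Itgam, Fcrl5 and Cd80, and under 50% for Spn, Ccnd2, S100a6 and Ahr.

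Surface molecules used to sort B-1 cells were seen in a minority of members. Spn, which encodes CD43, had UMIs in 21.6% of members (13.5% to 31.6%, exact Clopper-Pearson interval) and 4.15% of Fcer2a-positive cells at 18 months. At 2 months Spn was seen in 23% of members and 7.35% of Fcer2a-positive cells, beside at most 0.467% of endothelial cells of either library, whose median depth was 2810 UMIs at 18 months and 2956 at 2 months. Cd5, the marker that separates B-1a from B-1b cells, was seen in 1 of 88 members (1.14%) and none of 482 Fcer2a-positive cells at 18 months, with an exact interval of up to 0.762% for the Fcer2a-positive cells. At 2 months Cd5 was seen in 26 of 282 members (9.22%) and in 9 of 490 Fcer2a-positive cells (1.84%), beside 0.267% of endothelial cells. T cells, which carry CD5, had Cd5 UMIs in 46.8% of cells at 18 months and 50.9% at 2 months. Itgam, which encodes CD11b, was 35.7 CPM in members and 11.5 CPM in Fcer2a-positive cells at 18 months, and 24.6 CPM in members and 14.1 CPM in Fcer2a-positive cells at 2 months. Of the remaining list genes, Cd9 had log2 ratios of 0.64 (0.14 to 1.12) at 18 months and 0.41 (0.23 to 0.59) at 2 months. Pdcd1lg2 had ratios of -0.10 and 0.12, and Bhlhe40 of -0.35 and -0.81, at 18 and 2 months in that order.

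Genes of follicular B cells were lower in members. Of 12 follicular genes, without Fcer2a itself, 9 were lower in both libraries and none was higher, with a median log2 ratio of -0.97 at 18 months and -1.10 at 2 months. Ighd, the constant region of IgD, was 336 CPM in members and 948 CPM in Fcer2a-positive cells at 18 months, a log2 ratio of -1.50 (-1.70 to -1.30). At 2 months Ighd was 66.3 CPM in members and 464 CPM in Fcer2a-positive cells, a log2 ratio of -2.81 (-2.99 to -2.63). The gap was thus wider in the 2-month library, where members had the least Ighd of the 4 sets. Cr2, complement receptor 2, was 44.6 CPM in members and 135 CPM in Fcer2a-positive cells at 18 months, and 44.7 CPM in members and 218 CPM in Fcer2a-positive cells at 2 months. Ccr7, Cd55, Bach2, Fcrl1, Tnfrsf13c and Icosl were among the other genes lower in both libraries, while Klf2, Cxcr5 and Foxp1 were not past 1.5-fold in both. Of 10 marginal zone genes measured, 0 were higher in both libraries and 1, Cr2, was lower. All genes together gave 1.88% higher and 2.78% lower. Cd1d1, abundant in marginal zone B cells, had log2 ratios of 0.46 (-0.37 to 1.22) at 18 months and -0.37 (-0.81 to 0.07) at 2 months.

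**Figure D1:**
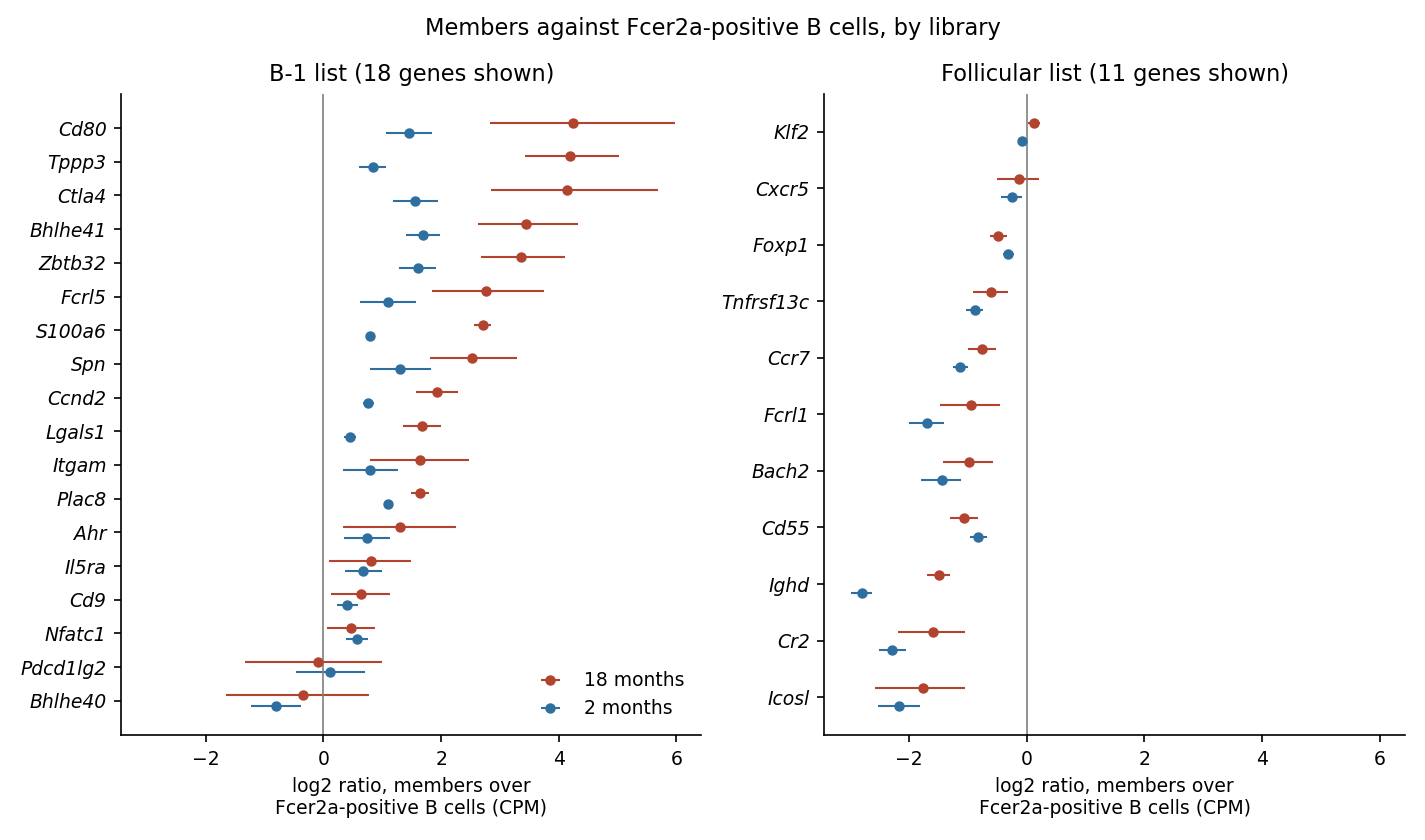
Log2 ratio of summed CPM, members over Fcer2a-positive B cells, for genes of the B-1 and follicular lists in the 18-month and 2-month libraries, with 95% counting intervals as bars. Most B-1 genes, such as Zbtb32 (3.36 and 1.60 at 18 and 2 months), lie to the right of 0. Most follicular genes, such as Ighd (-1.50 and -2.81 at 18 and 2 months), lie to the left. Bhlhe40 of the B-1 list lies to the left at both ages, and Klf2 of the follicular list to the right at 18 months.

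The name B1-like was looked at cell by cell with 9 of the list's genes (Zbtb32, Plac8, Bhlhe41, Cd5, Spn, Itgam, Ctla4, Cd9 and Fcrl5). The list was chosen with earlier results of these data known, and Zbtb32 and Plac8 were markers behind the name. Bhlhe40 and Pdcd1lg2 were not among the 9. The 9 genes therefore describe the members and do not test the name. At 18 months 46.6% of members and 2.49% of Fcer2a-positive cells had UMIs of at least 3 of them. At 2 months the share was 81.9% of members and 23.5% of Fcer2a-positive cells, and endothelial cells had 0.0667% at 18 months and 0.267% at 2 months. With every cell thinned to 2000 UMIs the shares came to 6.82% of members and 0.416% of Fcer2a-positive cells at 18 months, and to 14.9% of members and 2.86% of Fcer2a-positive cells at 2 months. Members thus exceeded Fcer2a-positive cells in each library at equal depth. At deposited depth most 2-month members and under 50% of 18-month members had at least 3 of the 9 genes. At 2000 UMIs a minority of members did in both libraries. Few members had Cd5, and some were Jchain-rich cells described further on. The cells are therefore called Mzb1-high B cells or members here.

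Fcer2a and Mzb1 did not split the B cells along 1 line. At 18 months 119 Fcer2a-positive cells had at least 3 Mzb1 UMIs, and at 2 months 256 did. Among these double-positive cells, 6.72% at 18 months and 35.9% at 2 months had at least 3 of the 9 B-1 genes. Among Fcer2a-positive cells with fewer Mzb1 UMIs the share was 1.10% at 18 months and 9.83% at 2 months. Zbtb32 followed the same order at both ages: 101.1 CPM in members, 31.4 CPM in double-positive cells and 0 CPM in Fcer2a-positive cells with fewer Mzb1 UMIs at 18 months, and 75.8, 35.1 and 8.57 CPM in the same sets at 2 months. The 18-month double-positive value rested on 1 cell with 15 of 24 UMIs and was 12.0 CPM without it. Depth ran in the same order too, with medians of 6664.5, 4665 and 4272 UMIs at 18 months and 13462, 9643.5 and 6627 UMIs at 2 months. Its part in the order was not tested.

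The genes furthest apart between members and Fcer2a-positive cells included several outside the lists. By the smaller of the 2 libraries' ratios, the first among higher genes was Cacna1s, which encodes a voltage-gated calcium channel subunit known from skeletal muscle. It was 50.5 CPM in members and 4.50 CPM in Fcer2a-positive cells at 18 months, and 76.5 CPM in members and 19.6 CPM in Fcer2a-positive cells at 2 months. Dnase1l3, a secreted DNase, was 55.0 CPM in members and 5.73 CPM in Fcer2a-positive cells at 18 months. At 2 months Dnase1l3 was 51.9 CPM in members and 15.4 CPM in Fcer2a-positive cells. Cacna1s UMIs were spread over 26.1% of members at 18 months and 44.7% at 2 months. Sox5, a transcription factor, was 78.8 CPM in members and 5.32 CPM in Fcer2a-positive cells at 18 months, and 71.4 CPM in members and 27.8 CPM in Fcer2a-positive cells at 2 months. Itgb1, integrin beta 1, was 278 CPM in members and 52.8 CPM in Fcer2a-positive cells at 18 months, and 284 CPM in members and 121 CPM in Fcer2a-positive cells at 2 months. Ass1, an enzyme of arginine synthesis, had log2 ratios of 2.29 at 18 months and 1.38 at 2 months. Odc1, the first enzyme of polyamine synthesis, had log2 ratios of 1.32 at 18 months and 1.19 at 2 months. Ptpn22, a phosphatase that dampens antigen receptor signals, had log2 ratios of 1.88 at 18 months and 1.07 at 2 months. Ms4a6c, Rassf4, Pafah1b3, Pdia4 and Rilpl2 completed the 15 genes with Zbtb32, Bhlhe41 and Plac8, with ratios between 0.83 (Rilpl2, 2 months) and 2.51 (Ms4a6c, 18 months).

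The genes lower in members were led by Icosl, the ligand of the T cell costimulator ICOS. Icosl was 25.3 CPM in members and 85.9 CPM in Fcer2a-positive cells at 18 months, and 18.5 CPM in members and 83.1 CPM in Fcer2a-positive cells at 2 months. Egr3, an early response transcription factor, had log2 ratios of -1.84 (-2.67 to -1.11) at 18 months and -1.69 (-1.99 to -1.38) at 2 months. Zfp318, which is needed for IgD expression through splicing of the Ighm and Ighd transcript, was 77.3 CPM in members and 222 CPM in Fcer2a-positive cells at 18 months. At 2 months Zfp318 was 24.1 CPM in members and 101.3 CPM in Fcer2a-positive cells, so that Zfp318 and Ighd were both lower in members of each library. Satb1, a chromatin organiser, was 104 CPM in members and 272 CPM in Fcer2a-positive cells at 18 months, and 16.2 CPM in members and 152 CPM in Fcer2a-positive cells at 2 months. Neurl3, a ubiquitin ligase, was 83.2 CPM in members and 265 CPM in Fcer2a-positive cells at 18 months, and 18.8 CPM in members and 160 CPM in Fcer2a-positive cells at 2 months. Pxdc1, Ms4a4c, Brwd1, Chchd10, Samsn1, Il21r, Fchsd2 and Pkib, with Cr2 and Ighd, made up the rest of the 15, and their log2 ratios ran from -2.60 (Pxdc1, 2 months) to -1.30 (Pkib, 18 months), apart from Ighd at 2 months. The balance of the whole comparison moved with the scaling: 160 genes were higher and 237 lower in both libraries on CPM, against 214 higher and 137 lower with median-ratio scaling, which shifts all ratios up by 0.12 at 18 months and 0.14 at 2 months. CPM without immunoglobulin, mitochondrial and ribosomal UMIs gave 205 higher and 149 lower. The genes named for this comparison kept their direction under both scalings, and Tnfrsf13c and Ebf1 at 18 months no longer passed 1.5-fold under either.

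Integrins, chemokine receptors and costimulatory molecules differed gene by gene. Of 18 homing genes, 2 were higher in both libraries (Itgb1 and Itgam) and 4 were lower (among them Ccr7, Ccr6 and Ccr2), with a list median of 0.07 at 18 months and -0.03 at 2 months. Over all genes the shares were 1.88% higher and 2.78% lower. Ccr6, the receptor of CCL20, was 13.4 CPM in members and 44.6 CPM in Fcer2a-positive cells at 18 months, and 21.1 CPM in members and 67.8 CPM in Fcer2a-positive cells at 2 months. Ccr7, which guides lymphocytes into lymph nodes, was thus lower in members beside a higher Itgb1. Of 11 costimulation genes, Cd80 and Cd274 were higher in both libraries, and Icosl and Tnfrsf13c, the BAFF receptor, were lower. Cd80, a ligand of CD28 and CTLA-4, was 38.6 CPM in members and 2.05 CPM in Fcer2a-positive cells at 18 months, and 44.5 CPM in members and 16.3 CPM in Fcer2a-positive cells at 2 months. Ctla4 itself was 43.1 CPM in members and 2.45 CPM in Fcer2a-positive cells at 18 months, in 11.4% and 0.830% of cells. At 2 months it was 51.4 CPM in members and 17.4 CPM in Fcer2a-positive cells, in 31.2% and 6.53% of cells, beside at most 0.267% of endothelial cells. Of 21 S100, annexin and related genes, S100a4, S100a6, Ahnak, Lgals3 and Crip1 were higher in both libraries and none was lower. At 18 months S100a4 rested on few cells, with 38 UMIs in 13 of 88 members and 76.3% of them in the 5 richest. S100a6, a calcium-binding protein, was 1587 CPM in members and 243 CPM in Fcer2a-positive cells at 18 months, and 2473 CPM in members and 1429 CPM in Fcer2a-positive cells at 2 months.

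General B cell genes were mostly within 1.5-fold between members and Fcer2a-positive cells. Of 20 B cell identity genes, 0 were higher in both libraries and 1, the transcription factor Ebf1, was lower, with medians of -0.02 at 18 months and -0.26 at 2 months. Over all genes 1.88% were higher and 2.78% lower in both, so counts this small do not set a list of this size apart. At 2 months alone 5 of the 20 were lower, beside 1067 of 10732 genes measured in that library. At 18 months 2 of the 20 were lower, beside 741 of 8575 genes. Cd79b, the partner of Cd79a in the receptor, had log2 ratios of -0.05 (-0.15 to 0.06) at 18 months and -0.10 (-0.16 to -0.05) at 2 months. Of 21 genes of B cell receptor signalling, 0 were higher and 1 was lower in both libraries. Of 12 MHC class II genes 1 was lower in both, Ciita, the class II transactivator. The class II median was -0.30 at 18 months and -0.53 at 2 months, where 5 of the 12 were lower.

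Plasma cell and secretory genes were higher in members, and most of these calls rested on a few cells with very high Jchain. Of 13 plasma cell genes, 7 were higher in both libraries (Jchain, Xbp1, Prdm1, Creld2, Txndc5, Edem1 and Fam46c) and none was lower. Over all genes 1.88% were higher and 2.78% lower. Of 23 genes of the endoplasmic reticulum, 8 were higher in both, among them Hsp90b1, a chaperone of secreted proteins, at 544 CPM in members and 354 CPM in Fcer2a-positive cells at 18 months. At 2 months Hsp90b1 was 1086 CPM in members and 662 CPM in Fcer2a-positive cells. Jchain, which joins IgM into pentamers, had at least 20 UMIs in 1 of 88 members at 18 months (1282 UMIs) and in 13 of 282 members at 2 months (497 to 3842 UMIs), and no other member exceeded 6. These 14 cells carried 99.4% of members' Jchain UMIs at 18 months and 99.7% at 2 months, and 63.1% and 81.3% of their Ighm UMIs in the same order of age. At 2 months 1 of the 13 had a Zbtb32 UMI, 8 had Plac8 and 2 had Ighd. The 14 cells were deep, with 32436 UMIs at 18 months and a median of 40115 UMIs at 2 months, where the lowest had 17522. The 2-month cells with 17522, 27485 and 28800 UMIs carried both Xist and Y-linked UMIs, as did 7.45% of all 2-month members. Whether these were doublets was not tested. Among Fcer2a-positive cells 1 cell at each age passed the same Jchain floor.

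With the Jchain-rich cells left out of both sets, a split chosen after the data were seen, most of these differences no longer passed. Of 12 plasma cell genes then measured 1 was higher in both libraries, Fam46c, and of 23 endoplasmic reticulum genes 1 was, the disulfide isomerase Pdia4. Hsp90b1 was then 434 CPM in members and 350.4 CPM in Fcer2a-positive cells at 18 months, and 796 CPM in members and 610.2 CPM in Fcer2a-positive cells at 2 months. Xbp1, which drives the secretory programme, had log2 ratios of 0.07 at 18 months and 0.18 at 2 months, against 0.67 and 0.87 with those cells. Ighm was 4286 CPM in the other 87 members and 3080 CPM in Fcer2a-positive cells at 18 months, a log2 ratio of 0.48 that was not past 1.5-fold. At 2 months Ighm was 3591 CPM in the other 269 members and 2371 CPM in Fcer2a-positive cells, a log2 ratio of 0.60 (0.56 to 0.64) that was just past it. The kappa gene Igkc was 10710 CPM in these members and 10311 CPM in Fcer2a-positive cells at 18 months, and 8707 CPM in these members and 8630 CPM in Fcer2a-positive cells at 2 months. IgM dominated throughout: Ighm was the heavy constant gene with the most UMIs in 84 of 88 members at 18 months (95.5%, 88.8% to 98.7%) and in 280 of 282 at 2 months. Light chain use was lambda in 9.09% of members and 5.39% of Fcer2a-positive cells at 18 months, and in 16.7% of members and 7.55% of Fcer2a-positive cells at 2 months. Of 4 variable genes known from natural antibodies of B-1 cells, 0 reached 20 UMIs in both libraries.

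**Figure D2:**
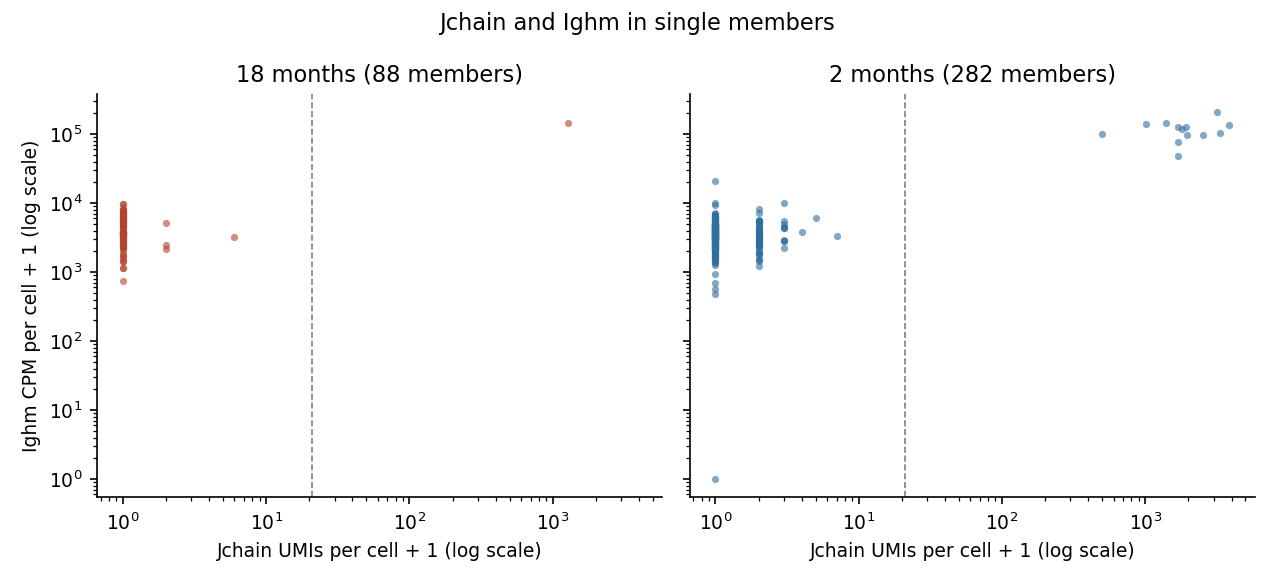
Jchain UMIs and Ighm level in CPM of each member, 18-month and 2-month libraries, on log axes with 1 added to both; the dashed line marks the floor of 20 Jchain UMIs. A group of 1 cell at 18 months and 13 cells at 2 months stands at 497 Jchain UMIs or more, apart from members with 6 or fewer.

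Members made up a smaller share of the 18-month library. They were 1.10% (0.879% to 1.35%) of kept cells at 18 months and 2.48% (2.20% to 2.78%) at 2 months, a log2 ratio of -1.18. Among B cells of the gate they were 11.8% (9.60% to 14.4%) at 18 months and 33.0% (29.8% to 36.2%) at 2 months, a log2 ratio of -1.48. Fcer2a-positive cells were 6.00% of kept cells at 18 months and 4.30% at 2 months, so the 2 kinds of B cell differed in opposite directions. Depth moved with this result. When every cell was thinned to 2000 UMIs before the gate, with an Mzb1 floor of 1 UMI, members were 28.5% of B cells at 18 months and 41.5% at 2 months, a log2 ratio of -0.54. As a share of kept cells that ratio was -0.29. The sort and the mixing ratios touch the share of kept cells, and their part was not tested.

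Hashtags and sex-linked genes divided the libraries further. The labels do not say what each hashtag stands for beyond a condition. At 18 months members were 12.2% of B cells under Hashtag11 (37 of 304) and 11.8% under Hashtag12 (49 of 417). At 2 months they were 34.6% under Hashtag09 (276 of 797) and 9.43% under Hashtag10 (5 of 53), so 276 of the 282 members came from 1 hashtag. Against Hashtag10 alone the 18-month share of B cells was not lower, with log2 ratios of 0.37 (-0.98 to 2.07) for Hashtag11 and 0.32 (-1.003 to 2.002) for Hashtag12. Cells with Xist UMIs and no Y-linked UMIs were at both ages mixed with cells of the reverse kind within each hashtag. Among Xist-only B cells, members made up 30.6% (22.9% to 39.1%) at 18 months, 41 of 134, and 15.3% (7.22% to 27.0%) at 2 months, 9 of 59. Among Y-linked-only B cells they made up 7.99% (5.33% to 11.4%) at 18 months, 27 of 338, and 38.0% (34.1% to 42.1%) at 2 months, 229 of 602. The log2 ratio of 18 over 2 months was 1.004 (-0.058 to 2.23) in Xist-only cells, an interval that includes 0, and -2.25 (-2.88 to -1.67) in Y-linked-only cells. At 18 months the split held within each hashtag: 29.4% of Xist-only and 9.40% of Y-linked-only B cells were members under Hashtag11, and 32.5% of Xist-only and 7.30% of Y-linked-only B cells under Hashtag12. Xist-only cells supplied 46.6% of members at 18 months and 3.19% at 2 months. Age and the mix of sexes in the members therefore cannot be told apart in the pooled values.

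**Figure D3:**
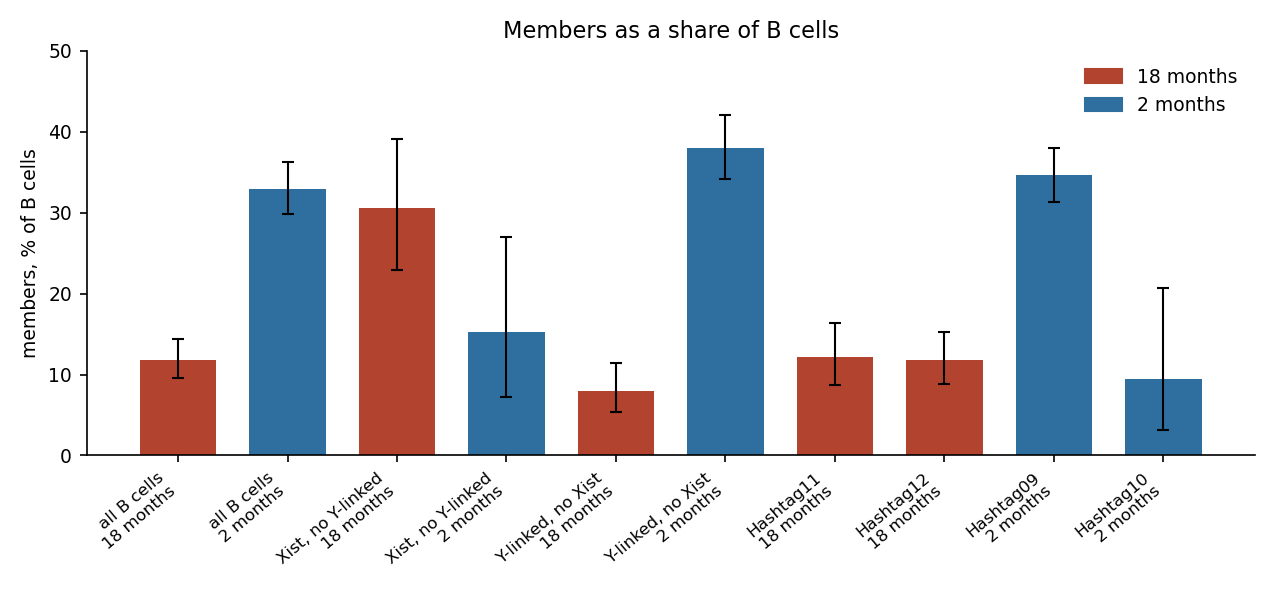
Members as a percentage of B cells in each library, in each hashtag and in cells with only Xist or only Y-linked UMIs, with exact 95% intervals as bars. The 18-month share lies below the 2-month share in the whole libraries (11.8% and 33.0%) and in Y-linked-only cells (7.99% and 38.0%) and above it in Xist-only cells (30.6% and 15.3%).

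The number of B-1 genes seen per member also differed along this division within a library. At 18 months at least 3 of the 9 B-1 genes were seen in 63.4% of Xist-only members (41 cells) and 25.9% of Y-linked-only members (27 cells). At 2 months they were seen in 33.3% of Xist-only members (9 cells) and 85.6% of Y-linked-only members (229 cells). The CPM of single genes did not all follow it. Bhlhe41 stood at 104 CPM in Xist-only and 25 CPM in Y-linked-only members at 18 months, and at 135 CPM in Xist-only and 96.6 CPM in Y-linked-only members at 2 months. Zbtb32 was 112 CPM in Xist-only and 87.4 CPM in Y-linked-only members at 18 months, and 78.5 and 82.2 CPM at 2 months. Plac8 was 972 and 1142 CPM in the same order at 18 months, and 505 and 1054 CPM at 2 months. Median depth was 7857 UMIs in Xist-only and 5328 UMIs in Y-linked-only members at 18 months, and 7262 UMIs in Xist-only and 13447 UMIs in Y-linked-only members at 2 months. In each library the kind of cell with more B-1 genes per cell was also the deeper one, and the part of depth was not tested.

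**Figure D4:**
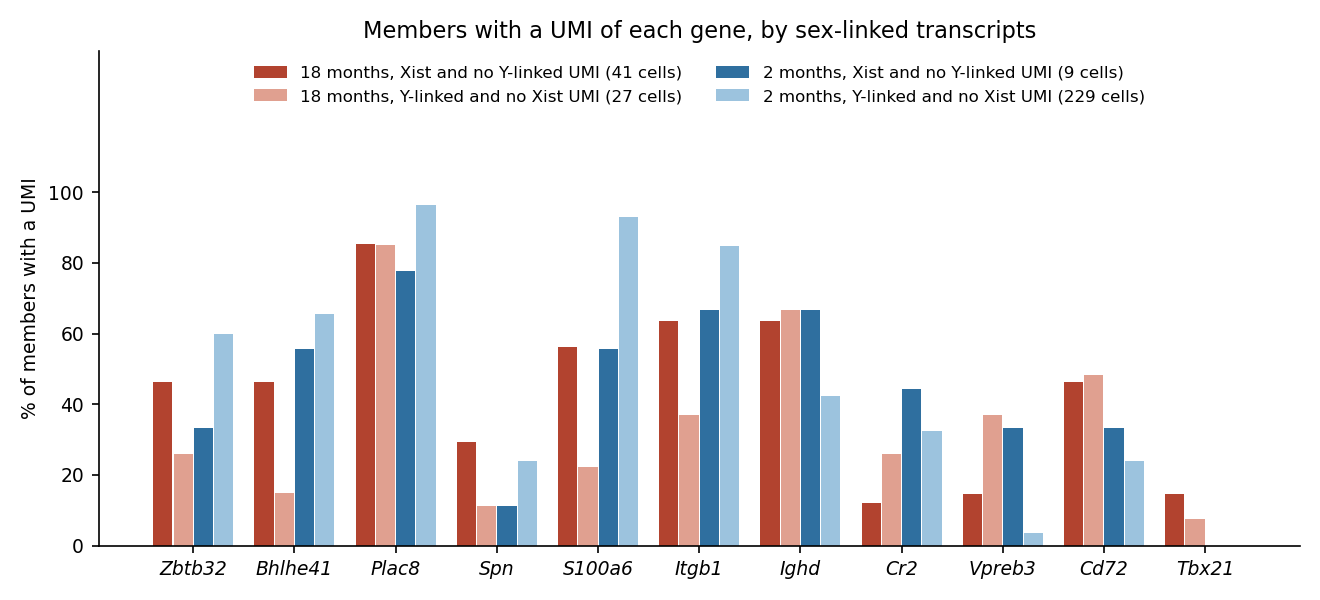
Percentage of members with at least 1 UMI of each of 11 genes (bars), for Xist-only and Y-linked-only members of the 18-month and 2-month libraries. Bhlhe41 was seen in 46.3% of Xist-only and 14.8% of Y-linked-only members at 18 months, and in 55.6% of Xist-only and 65.5% of Y-linked-only members at 2 months.

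Between ages, members differed in many genes, while Zbtb32, Plac8 and Bhlhe41 did not pass 1.5-fold. Of 9488 genes measured in members, 1067 (11.2%) were higher and 587 (6.19%) lower at 18 months. In Fcer2a-positive cells 11.7% of 10359 genes were higher and 9.2% lower at 18 months. The split in members moved with the scaling to 739 higher and 775 lower with median-ratio scaling, which shifts ratios down by 0.12, and to 731 higher and 788 lower on CPM without immunoglobulin, mitochondrial and ribosomal UMIs. Zbtb32 had a log2 ratio of 0.42 (0.02 to 0.80), Plac8 of -0.03 (-0.15 to 0.09) and Bhlhe41 of -0.28 (-0.73 to 0.14), none past 1.5-fold. Under the thinned gate, which admits other cells, these ratios were -1.18 for Zbtb32, -0.80 for Plac8 and -1.33 for Bhlhe41. Of 19 B-1 genes 2 (Spn and Fcrl5) were higher and 4 (Cd9, Ccnd2, S100a6 and Lgals1) lower at 18 months, with a list median of -0.28. Ccnd2, a cyclin that B-1 cells carry at high levels, was 204 CPM at 18 months and 482 CPM at 2 months in members. In Fcer2a-positive cells Ccnd2 was 53.2 CPM at 18 months and 284 CPM at 2 months, so it was lower at 18 months in both kinds of cells.

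Follicular and inhibitory receptor genes were higher in members at 18 months. Of 12 follicular genes 7 were higher and none was lower, with a median log2 ratio of 0.74 beside 0.12 over all genes. Over all genes measured in members 11.2% were higher and 6.19% lower. In Fcer2a-positive cells 6 of the 12 were higher and 1 lower at 18 months, with a median of 0.60. Ighd was 336 CPM at 18 months and 66.3 CPM at 2 months in members, a log2 ratio of 2.34 (2.08 to 2.60), and 948 CPM at 18 months and 464 CPM at 2 months in Fcer2a-positive cells. Members with 3 to 5 Mzb1 UMIs held 72.6% of the Ighd UMIs of 18-month members and 42.0% of those of 2-month members, and they were 51.1% of members at 18 months and 23.8% at 2 months. Within that range the Ighd ratio was 2.17 (1.82 to 2.52), with 6 to 10 Mzb1 UMIs it was 1.51 (1.01 to 2.001), and with 11 or more it was 0.39 (-0.98 to 1.52). In Xist-only members the Ighd ratio was 0.66. At 18 months members with 4 to 5 Mzb1 UMIs had 650 CPM of Ighd, beside 647 CPM in Fcer2a-negative B cells with 0 Mzb1 UMIs. At 2 months these values were 126 and 363 CPM. The gate asks for 0 Fcer2a UMIs, and Fcer2a-positive cells had a median of 2 at 18 months and 2.5 at 2 months. A shallow cell meets this condition more easily, and its part in these age ratios was not tested. Cd72, an inhibitory coreceptor of B cells, headed the genes of this direction: it was 215 CPM in 44 of 88 members at 18 months and 26.9 CPM in 69 of 282 at 2 months, a log2 ratio of 3.003 (2.64 to 3.37). In Fcer2a-positive cells Cd72 was 163 CPM at 18 months and 124 CPM at 2 months, a log2 ratio of 0.39, not past 1.5-fold. Of 12 inhibitory receptor genes measured 5 were higher at 18 months, Cd22, Cd72, Fcgr2b, Pirb and Dok3, and none was lower. In Fcer2a-positive cells 1 of 11 was higher. Cd22, a sialic acid-binding brake on the receptor, was 239 CPM at 18 months and 118 CPM at 2 months in members, and 197 CPM at both ages in Fcer2a-positive cells. Fcgr2b, the inhibitory Fc receptor, was 156 CPM at 18 months and 64.7 CPM at 2 months in members.

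Other genes higher in members at 18 months included Vpreb3, Fcer1g, Lrrk2, Satb1, Wfdc17, Neurl3, Chst3, Bach2, Pgap1 and Grap2, with log2 ratios from 1.74 (Grap2) to 2.85 (Vpreb3). Vpreb3, known from developing and naive B cells, was 110 CPM at 18 months and 15.3 CPM at 2 months in members, and 221 CPM at 18 months and 134 CPM at 2 months in Fcer2a-positive cells. Fcer1g, the common Fc receptor gamma chain, was 134 CPM at 18 months and 19.5 CPM at 2 months in members, and 68.3 CPM and 28.9 CPM in Fcer2a-positive cells. Each of these 10 genes was past 1.5-fold in the same direction in Fcer2a-positive cells, and in Xist-only members Vpreb3, Satb1 and Chst3 ran the other way, at -1.73, -0.35 and -0.11. Bach2, a repressor of plasma cell differentiation, was 78.8 CPM at 18 months and 22.7 CPM at 2 months in members. Of 7 measured genes of a list for age-associated B cells, 3 were higher in members at 18 months and none was lower. The list median was 0.54 in members. In Fcer2a-positive cells 2 of 7 were higher and 1 was lower, with a median of -0.30. Zeb2, a transcription factor of age-associated B cells, was 293 CPM at 18 months and 98.0 CPM at 2 months in members, a log2 ratio of 1.58 (1.33 to 1.83). In Fcer2a-positive cells Zeb2 was 120 CPM at 18 months and 79.8 CPM at 2 months. Zeb2 was seen in 48.9% of members at 18 months and 52.8% at 2 months, and 5 members held 46.7% of its 18-month UMIs. In Xist-only members it was 315 CPM at 18 months and 224 CPM at 2 months, and in Y-linked-only members 156 and 90.4 CPM. Tbx21, which encodes T-bet and defines age-associated B cells, had 15 UMIs in 9 of 88 members at 18 months and 0 in 282 members at 2 months. That is below the 20 UMIs of a measured gene. Against a floor of 3 counts over the 2-month members the level was 32.1-fold higher, a value that leaves out the counting error of the 15 UMIs. In Fcer2a-positive cells Tbx21 was 1.64 CPM at 18 months and 1.30 CPM at 2 months, and in endothelial cells it was 0. All 9 cells with Tbx21 carried Hashtag12 and none Hashtag11. Zeb2 by hashtag was 123 CPM under Hashtag11 and 375 CPM under Hashtag12.

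**Figure D5:**
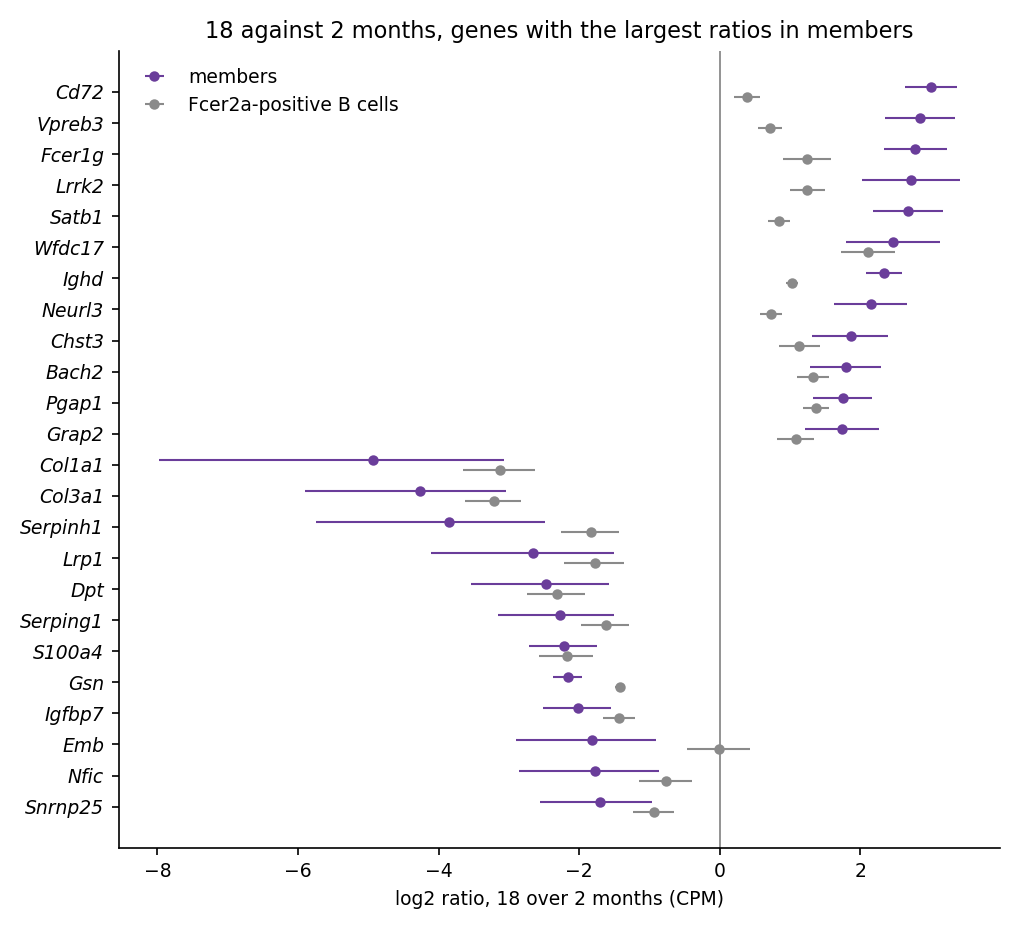
Log2 ratio of summed CPM, 18 over 2 months, for the 12 genes in each direction named by their ratio in members and, beside each, the same gene in Fcer2a-positive B cells, with 95% counting intervals as bars. Cd72 lies at 3.003 in members and 0.39 in Fcer2a-positive cells, and collagen genes lie far to the left in both.

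MHC class II genes, secretory genes and homing receptors also differed between ages. Over all genes measured, 11.2% were higher and 6.19% lower at 18 months in members, and 11.7% and 9.2% in Fcer2a-positive cells. Of 12 class II genes 5 were higher in members at 18 months and none was lower, with a median of 0.53, and in Fcer2a-positive cells 3 were higher with a median of 0.26. Ciita was 119 CPM at 18 months and 53.3 CPM at 2 months in members, and H2-Ab1 was 2996 CPM at 18 months and 1864 CPM at 2 months. H2-Ab1 was past 1.5-fold on CPM and not with median-ratio scaling, where its ratio was 0.56. Of 23 endoplasmic reticulum genes 12 were lower at 18 months in members and 11 in Fcer2a-positive cells. Calr, calreticulin, was 361 CPM at 18 months and 861 CPM at 2 months in members, and 402 CPM at 18 months and 738 CPM at 2 months in Fcer2a-positive cells. Of 17 homing genes 7 were higher at 18 months, among them Cxcr4, the CXCL12 receptor, at 122 CPM at 18 months and 38.7 CPM at 2 months. Cxcr4 was likewise higher in Fcer2a-positive cells, at 182 CPM at 18 months and 57.8 CPM at 2 months. Of 1049 genes higher in members at 18 months and measured in both kinds of cells, 382 (36.4%) were higher in Fcer2a-positive cells too and 15 were lower there. Of 571 lower genes 315 (55.2%) were lower in both kinds. Those shares stand beside 11.7% higher and 9.2% lower over all genes measured in Fcer2a-positive cells.

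The immunoglobulin genes moved with the Jchain-rich cells. Ighm was 11054 CPM at 18 months and 16910 CPM at 2 months in all members, a log2 ratio of -0.61. Without the Jchain-rich cells the ratio was 0.26, and for Igkc it was 0.30, against -0.60 with them. Of 20 type I interferon genes measured in members, 10 were higher and 1 was lower at 18 months, with a median log2 ratio of 0.68, while in Fcer2a-positive cells 1 of 24 was higher and 6 were lower. The all-gene shares were 11.2% higher and 6.19% lower in members, and 11.7% and 9.2% in Fcer2a-positive cells. For 7 of the 10 genes, 5 cells held over 50% of the UMIs of 18-month members. Rsad2, an antiviral enzyme, had 27 UMIs in 4 of 88 members at 18 months and 9 UMIs in 8 of 282 at 2 months. Isg15, a ubiquitin-like protein, had 26 UMIs in 8 members at 18 months, 16 of them in 1 cell, and 92 UMIs in 42 members at 2 months. Its log2 ratio was 0.86 (0.17 to 1.499), and -0.46 with the cells that Scrublet marked left out. Sp100, a nuclear body protein, was spread more widely, in 76 of 88 members at 18 months and 239 of 282 at 2 months, with a ratio of 0.80 (0.57 to 1.02). Isg15 and Sp100 were picked after their values were seen. Cells with at least 5 UMIs of 8 cell cycle genes were 0 of 88 members at 18 months (exact interval up to 4.11%) and 8 of 282 at 2 months (2.84%, 1.23% to 5.51%). In Fcer2a-positive cells there were 3 of 482 at 18 months and 5 of 490 at 2 months.

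Transcripts of other cell types moved with the age comparison. The genes lowest in members at 18 months were led by Col1a1, Col3a1 and Serpinh1, collagen genes and a collagen chaperone, and included Lrp1, Dpt, Serping1, Gsn and Igfbp7, which fibroblasts carry. Col1a1 was 2.97 CPM in 2 of 88 members at 18 months and 90.6 CPM in 58 of 282 members at 2 months. It was also lower in Fcer2a-positive cells, at 14.3 CPM at 18 months and 125 CPM at 2 months. The summed level of a list of 10 fibroblast genes was 709 CPM in members at 18 months and 2959 CPM at 2 months, and 1289 CPM in Fcer2a-positive cells at 18 months and 4059 CPM at 2 months, with 1 of the 10 genes at 0 in 18-month members. In all kept cells it was 6144 CPM at 18 months and 24087 CPM at 2 months. A single 18-month member held 78.6% of that list's UMIs. Members with over 15000 UMIs, 5 at 18 months and 104 at 2 months, had 117 CPM at 18 months and 5015 CPM at 2 months. With the cell filter that the authors deposited in a text note (200 genes, 8% mitochondrial UMIs, 15000 UMIs), the list was 822 CPM at 18 months and 445 CPM at 2 months in members. Dpt, Serping1, Gsn and Igfbp7 then changed direction, and Col1a1 kept a log2 ratio of -1.99 with an interval, -5.10 to 0.0051, that included 0. The part of fibroblast transcripts in the other age ratios was not tested. In all kept cells summed macrophage genes were 7844 CPM at 18 months and 3353 CPM at 2 months, and neutrophil genes 12976 and 2710 CPM. In members macrophage genes were 189 and 154 CPM and neutrophil genes 455 and 1114 CPM in the same order. The part of such transcripts in age ratios like those of Fcer1g and Wfdc17 was not tested. S100a4, Emb, Nfic and Snrnp25 were lower at 18 months without being on the fibroblast list, S100a4 at 56.5 CPM at 18 months and 262 CPM at 2 months.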

How the data were processed

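The deposited matrices hold counts, whole UMIs per gene and cell barcode and unscaled per the file headers, with hashtag antibody counts in the same matrices. Per the submitters' processing notes, Cell Ranger 3.1.0 was used with mm10 (GRCm38). The lymph node samples were not analysed here. Some genes counted in the lists are not reported here by name.

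The members, gene lists and tests were chosen with earlier results of these data known. Counts were summed over the cells of a set and scaled to CPM, and log2 ratios carry exact conditional binomial 95% intervals. Genes counted as measured from 20 UMIs over the sets compared. Named genes needed at least 50 CPM in 1 set and 5 richest cells with under 50% of their UMIs; they were ranked by the smaller ratio of the libraries (15 each way), or by the age ratio where the interval lay beyond 1.5-fold and at least 30 UMIs were counted (12 each way). Rule genes, Xist, Y-linked, mitochondrial, ribosomal and variable-region genes were left out. A hashtag was called where its count was over 3 times the other's plus 1. Scrublet ran in Scanpy 1.11.5 at an expected rate of 8%; its doublets stayed in, except in 1 alternative. The fold rule was tried only on simulated sums with counting error and no spread between cells, so that spread was not tested. Alternatives changed the Mzb1 floor, cell filter, doublets, depth, scaling, UMI minimum and subsets of cells. Scripts ran in Python 3.11.15 with SciPy 1.17.1, NumPy 2.4.6, Matplotlib 3.10.9 and pandas 2.3.3.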

Additional observations from a re-analysis of the deposited data

Results flagged for a closer look

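The share of members among B cells differed between ages in opposite directions in the 2 kinds of cells told apart by sex-linked genes. Its log2 ratio of 18 over 2 months was 1.004 (-0.058 to 2.23) in Xist-only B cells, where the interval includes 0, and -2.25 (-2.88 to -1.67) in Y-linked-only B cells. This difference was not tested. The Xist-only value rests on 41 members at 18 months and 9 at 2 months.

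Cell cycle genes differed between ages in opposite directions in members and in Fcer2a-positive cells, and these differences were not tested. Mki67 had a log2 ratio of -1.60 in members and 1.37 in Fcer2a-positive cells. Top2a had -3.89 in members and 0.87 in Fcer2a-positive cells, and Stmn1 had -2.24 in members and 1.48 in Fcer2a-positive cells. A single Fcer2a-positive cell held 49 of the 63 Mki67 UMIs of that set at 18 months, and the 5 richest members held 77.9% of the 190 Top2a UMIs at 2 months.

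The neutrophil gene S100a8 had a log2 ratio of -1.75 in members and 3.57 in Fcer2a-positive cells, which was not tested either. A single 2-month member held 1976 of the 2053 S100a8 UMIs of its set. The summed neutrophil list was 455 CPM in members at 18 months and 1114 CPM at 2 months, and 2021 CPM in Fcer2a-positive cells at 18 months and 219 CPM at 2 months.

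The interferon gene Isg15 had a log2 ratio of 0.86 in members and -0.88 in Fcer2a-positive cells, which was not tested. A single 18-month member held 16 of the 26 Isg15 UMIs of its set.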

How the results depend on the processing

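The share of members was lower at 18 months under every setting tried except in Xist-only cells, where the log2 ratios were 2.71 of kept cells and 1.004 of B cells, and against Hashtag10, which holds 5 members. Against Hashtag10, a setting added after the data were seen, Hashtag11 gave 2.19 of kept cells and 0.37 of B cells and Hashtag12 gave 2.38 and 0.32. In the other settings the ratios were -0.69 and -0.995 with at least 2 Mzb1 UMIs, -1.62 and -1.92 with at least 5, -0.29 and -0.54 with cells thinned before the gate, and -2.30 and -2.25 in Y-linked-only cells. Of kept cells alone the ratio was -0.76 with the submitters' filter, -2.39 for Hashtag11 over Hashtag09 and -2.20 for Hashtag12 over Hashtag09.

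Genes higher in both libraries numbered 40 with thinning, 91 with a minimum of 50 UMIs, 16 in Xist-only cells, 30 in Y-linked-only cells, 73 for Hashtag11 and 95 for Hashtag12. Genes lower in both numbered 133 with the submitters' filter, 13 with thinning, 137 with median-ratio scaling, 149 on CPM without immunoglobulin, mitochondrial and ribosomal UMIs, 55 in Xist-only cells, 92 in Y-linked-only cells, 156 for Hashtag11 and 139 for Hashtag12. Between ages, 604 genes were higher and 243 lower with thinning, 133 and 122 in Xist-only cells, and 678 and 328 for Hashtag11. The lower count was 239 with the submitters' filter and 267 in Y-linked-only cells. Thinning and subsets leave fewer UMIs or cells to count.

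Between members and Fcer2a-positive cells, these log2 ratios changed sign. With the submitters' filter they were Jchain at -0.52 (18 months) and -0.19 (2 months) and Igkc at -0.076 (2 months). With thinning they were, at 18 months, Chchd10 at 0.075, Pkib at 0.28, Bach2 at 0.23 and Fcrl1 at 0.15, and Xbp1 at -0.055 (2 months). In Xist-only cells at 2 months they were Rilpl2 at -0.79, Igkc at -0.27 and Hsp90b1 at -0.18. In Y-linked-only cells at 18 months they were Pxdc1 at 0.13, Jchain at -1.08, Xbp1 at -0.039 and Igkc at -0.25. At 18 months Hashtag11 gave Xbp1 at -0.18 and Igkc at -0.36, and Hashtag12 gave Il5ra at -0.43. Without Jchain-rich cells, a setting added after the data were seen, Jchain was -0.42 at 2 months.

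Of 18 over 2 months, the submitters' filter gave Dpt 0.29, Serping1 1.77, Gsn 0.53, Igfbp7 0.71, Ighm 0.24, Igkc 0.29 and S100a8 2.95. Thinning gave S100a8 3.93 and Y-linked-only cells S100a8 2.27. Xist-only cells gave Vpreb3 -1.73, Satb1 -0.35, Chst3 -0.11, S100a6 0.75, Ccnd2 0.21, Klf2 -0.11, Ighm 2.35, Igkc 2.49, Jchain 6.71, Cxcr4 -0.49, Ebf1 -0.39, Hsp90b1 0.33 and S100a8 2.82. Isg15 was -0.46 without Scrublet doublets, -1.40 in Y-linked-only cells and -1.71 for Hashtag11. Hashtag12 gave Ighm 0.15 and Igkc 0.31, and leaving out Jchain-rich cells gave Ighm 0.26 and Igkc 0.30. The cause of each change was not tested. No paired analysis was possible because each age had 1 library. Zbtb32, Plac8 and Bhlhe41 kept their direction against Fcer2a-positive cells in every setting that gave a value.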
